A study of Mus musculus with 8 samples.

Results

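A set of 10 genes of the circadian clock and its output branch was described in ear epidermis of tamoxifen-treated mice: the PAR bZIP activators Dbp, Hlf and Tef, the opposing bZIP repressor Nfil3, the activator Arntl (also called Bmal1), the period genes Per1, Per2 and Per3, and the repressors Nr1d1 and Bhlhe41. These 10 of the 51912 genes in the count tables were taken by name, and the list was chosen by their differences between A20KIKO and A20WT in these same libraries. Their levels and log2 changes are therefore given as a description, with no p-value. All 10 passed the filter on low counts, with 226 to 30154 counts per library.

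RNA was measured in epidermal sheets from 4 A20KIKO and 4 A20WT mice, each library from a different animal. A20KIKO mice were A20F/F Krt5-CreERT2+, and A20WT mice were A20F/F Krt5-CreERT2-, so both groups carried the floxed A20 (Tnfaip3) alleles and differed by the labels in the tamoxifen-inducible Cre driven by the Krt5 promoter, which is active in basal keratinocytes. Mice of both groups were 8 weeks old, received 1 mg of tamoxifen on each of 2 days and were killed 7 days after the first injection. Ear skin lay on trypsin overnight before the sheets were lifted and lysed, so the RNA was not taken at the time of killing. The hour of killing is not given in the sources used here, no Cre-bearing mouse without floxed alleles was among these samples, and effects of the Cre itself cannot be told apart from those of the deletion.

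In the clock, the proteins of Clock and Arntl pair and switch on genes that carry E-boxes, among them the Per and Cry genes, Nr1d1, Bhlhe41 and the PAR bZIP genes. PER and CRY proteins then repress that pair, and the product of Nr1d1 represses Arntl and Nfil3 through ROR elements. DBP, HLF and TEF activate genes through D-boxes, which NFIL3 binds as a repressor. In skin the clock is known to time the division and activation of epidermal cells. Arntl and its targets peak at opposite phases of the day, so in tissue taken at a single time a difference in phase moves the 2 arms in opposite directions.

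Promoter windows of 300 bases (from 250 bases before to 50 after an annotated start) were read from RefSeq on GRCm38.p6 for 9 of the 10 genes, 12 windows in all. Per2 was not in that table. The E-box was searched as CACGTG, the D-box as TTATGTAA or TTACGTAA, and the ROR element as TAGGTCA or TGGGTCA, on both strands. No match in the windows of these genes overlapped another. The sequences are shown as the windows of these genes in which the letters were found. A match is a description and not a tested site. They are written 5′ to 3′ on the strand of the gene, with the match in capitals.

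The Per3 window (chr4:151044616-151044915, minus strand) held the D-box at 205 and at 158 bases before the start. The Arntl window (chr7:113207261-113207560, plus strand, second annotated start) held a ROR element 31 bases into the transcript. The Nfil3 window (chr13:52980990-52981289, minus strand) held it 12 bases before the start, on the opposite strand. Single E-boxes lay in stretches of Bhlhe41 (chr6:145865528-145865613, minus strand), Per1 (chr11:69098743-69098828, plus strand) and both annotated starts of Tef (chr15:81802506-81802591 and chr15:81811236-81811321, plus strand).
Per3, D-boxes: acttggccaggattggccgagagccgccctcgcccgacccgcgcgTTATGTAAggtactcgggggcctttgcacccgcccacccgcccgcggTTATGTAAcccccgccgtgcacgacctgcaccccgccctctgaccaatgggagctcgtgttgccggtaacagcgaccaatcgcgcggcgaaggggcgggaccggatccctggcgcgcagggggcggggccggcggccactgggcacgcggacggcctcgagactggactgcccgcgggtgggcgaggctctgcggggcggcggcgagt
Arntl, ROR element: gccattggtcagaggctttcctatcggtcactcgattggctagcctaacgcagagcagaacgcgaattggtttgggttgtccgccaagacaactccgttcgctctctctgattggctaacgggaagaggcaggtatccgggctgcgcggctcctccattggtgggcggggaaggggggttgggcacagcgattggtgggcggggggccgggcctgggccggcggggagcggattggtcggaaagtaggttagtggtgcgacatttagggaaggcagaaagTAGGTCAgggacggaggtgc
Nfil3, ROR element: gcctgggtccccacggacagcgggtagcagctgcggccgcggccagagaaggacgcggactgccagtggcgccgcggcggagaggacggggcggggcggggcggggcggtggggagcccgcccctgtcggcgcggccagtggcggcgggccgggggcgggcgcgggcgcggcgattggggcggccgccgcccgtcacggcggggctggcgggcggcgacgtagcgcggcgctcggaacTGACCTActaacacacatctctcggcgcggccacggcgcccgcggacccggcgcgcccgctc
Bhlhe41, E-box: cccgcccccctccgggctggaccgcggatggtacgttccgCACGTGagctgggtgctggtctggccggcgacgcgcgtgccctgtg
Per1, E-box: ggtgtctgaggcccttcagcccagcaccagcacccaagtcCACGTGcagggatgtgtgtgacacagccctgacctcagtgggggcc
Tef first start, E-box: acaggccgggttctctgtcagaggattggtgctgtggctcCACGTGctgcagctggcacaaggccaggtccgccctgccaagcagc
Tef second start, E-box: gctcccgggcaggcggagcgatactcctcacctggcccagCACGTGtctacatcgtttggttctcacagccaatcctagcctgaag

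Among all 32851 promoter windows of the table, the D-box was found in 1.06%, the E-box in 7.15% and the ROR element in 6.45%. Of the 12 windows of these genes, 1 held the D-box, 4 held the E-box (3 genes) and 2 held the ROR element (2 genes). The windows of Dbp, Hlf and Nr1d1 held none of these letters, which says nothing about sites elsewhere in those genes.

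Of the PAR bZIP activators, Dbp and Hlf were lower in every A20KIKO library than in any A20WT library, while the groups overlapped for Tef. Dbp, named for its binding to a D-box of the albumin promoter, had 62.4, 66.6, 86.6 and 58.5 CPM (counts scaled to a common library size) in A20KIKO mice 1 to 4, against 163, 128, 136 and 156 CPM in A20WT mice 1 to 4. Its mean was 68.5 ± 12.5 CPM in A20KIKO and 146 ± 16.4 CPM in A20WT (SD, n = 4 each), or -1.09 on the log2 scale (SE 0.14). The highest A20KIKO library, mouse 3, lay well below the lowest A20WT library, mouse 2. Hlf, a factor first found in a leukaemia fusion, had 84.7, 98.2, 115 and 88.8 CPM in A20KIKO mice 1 to 4, against 158, 191, 173 and 151 CPM in A20WT mice 1 to 4, a log2 change of -0.80 (SE 0.12). Here too the highest A20KIKO value came from mouse 3, and every A20KIKO library was below every A20WT library. Tef, the thyrotroph embryonic factor, had 245, 262, 285 and 188 CPM in A20KIKO mice 1 to 4, against 269, 406, 350 and 311 CPM in A20WT mice 1 to 4. Its log2 change was -0.45 (SE 0.16), and the groups overlapped, since A20WT mouse 1 lay below A20KIKO mouse 3.

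Nfil3, whose product represses through the same D-boxes, stood on the other side. It had 20.2, 18.2, 13.8 and 21.03 CPM in A20KIKO mice 1 to 4, against 7.40, 6.69, 7.36 and 8.37 CPM in A20WT mice 1 to 4. The log2 change was 1.30 (SE 0.15), or 2.46-fold, and the groups did not overlap. Its lowest A20KIKO library was mouse 3, the library in which Dbp and Hlf were highest of that group. Within A20WT the lowest Nfil3 was in mouse 2, where Hlf was highest but Dbp lowest of that group. Per kilobase of exon, the sum of Dbp, Hlf and Tef was 68.5 ± 10.7 CPM in A20KIKO and 116 ± 4.67 CPM in A20WT (SD, n = 4 each). The ratio of that sum to Nfil3, taken within each library and so free of its scaling, was 6.50, 7.82, 12.04 and 5.46 in A20KIKO mice 1 to 4, against 30.7, 37.2, 31.8 and 27.7 in A20WT mice 1 to 4. The ratio of Dbp to Nfil3 was 2.67 ± 1.07 in A20KIKO and 13.2 ± 1.11 in A20WT (SD, n = 4 each). The sum, like Dbp, was lower in every A20KIKO library than in any A20WT library. The separation of both ratios follows from those of their parts and is no further result.

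**Figure D1:**
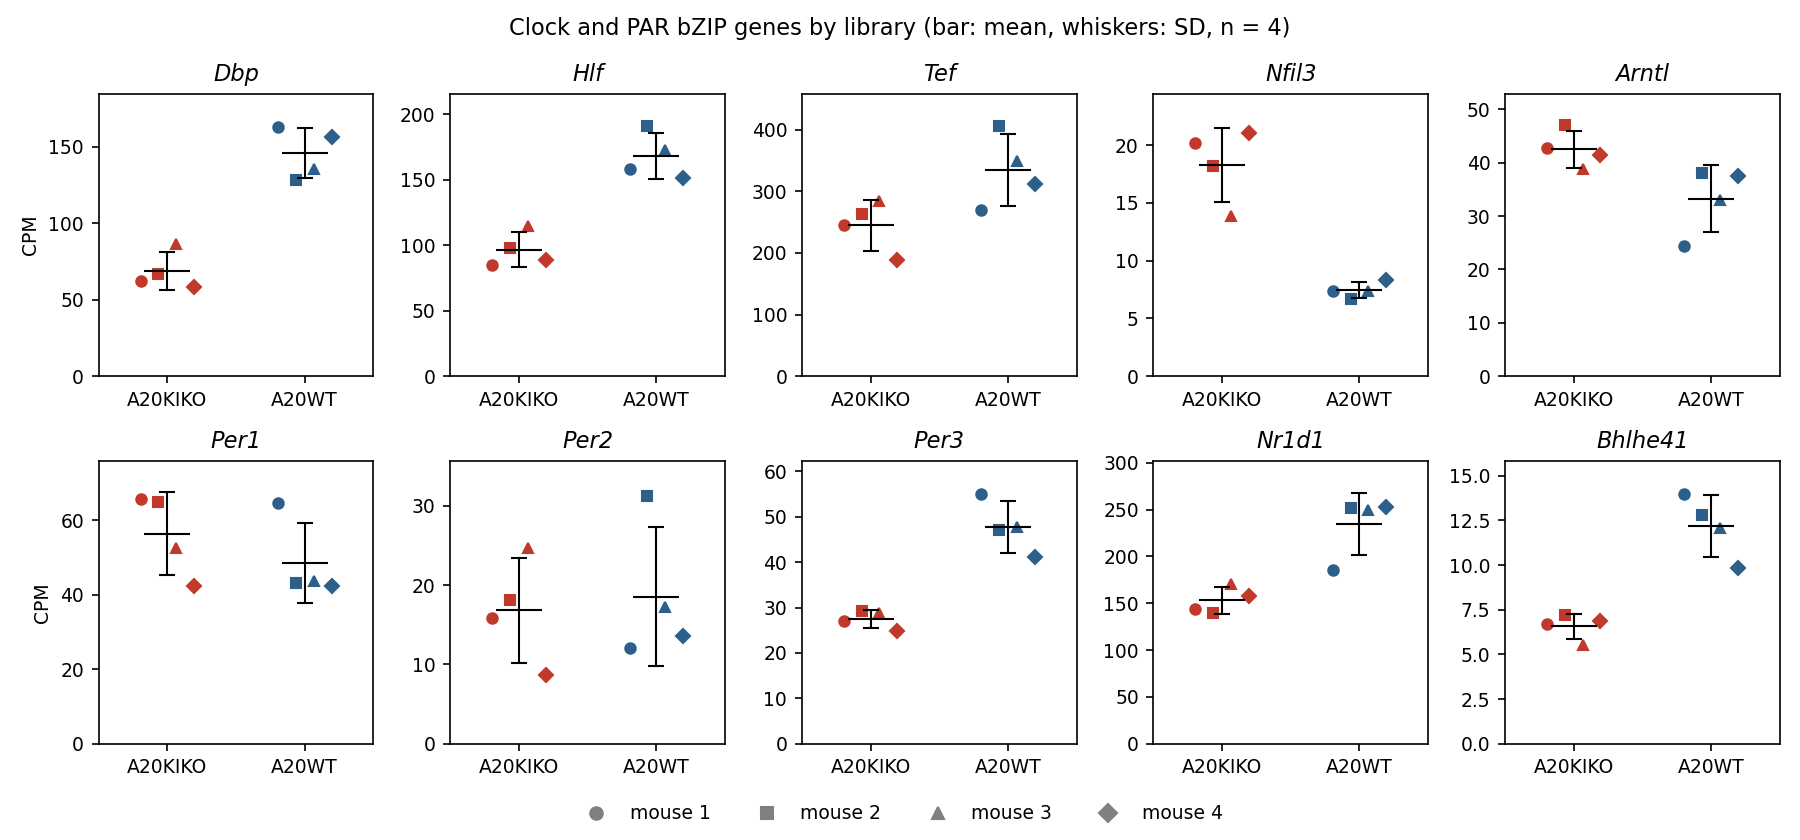
CPM of the 10 genes (vertical axes, each from 0) in each A20KIKO (red, left) and A20WT (blue, right) library, with the group mean and SD (n = 4). Dbp, Hlf, Per3, Nr1d1 and Bhlhe41 lie lower and Nfil3 and Arntl higher in every A20KIKO library, while Tef, Per1 and Per2 overlap, and mouse numbers do not pair animals across groups.

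**Figure D2:**
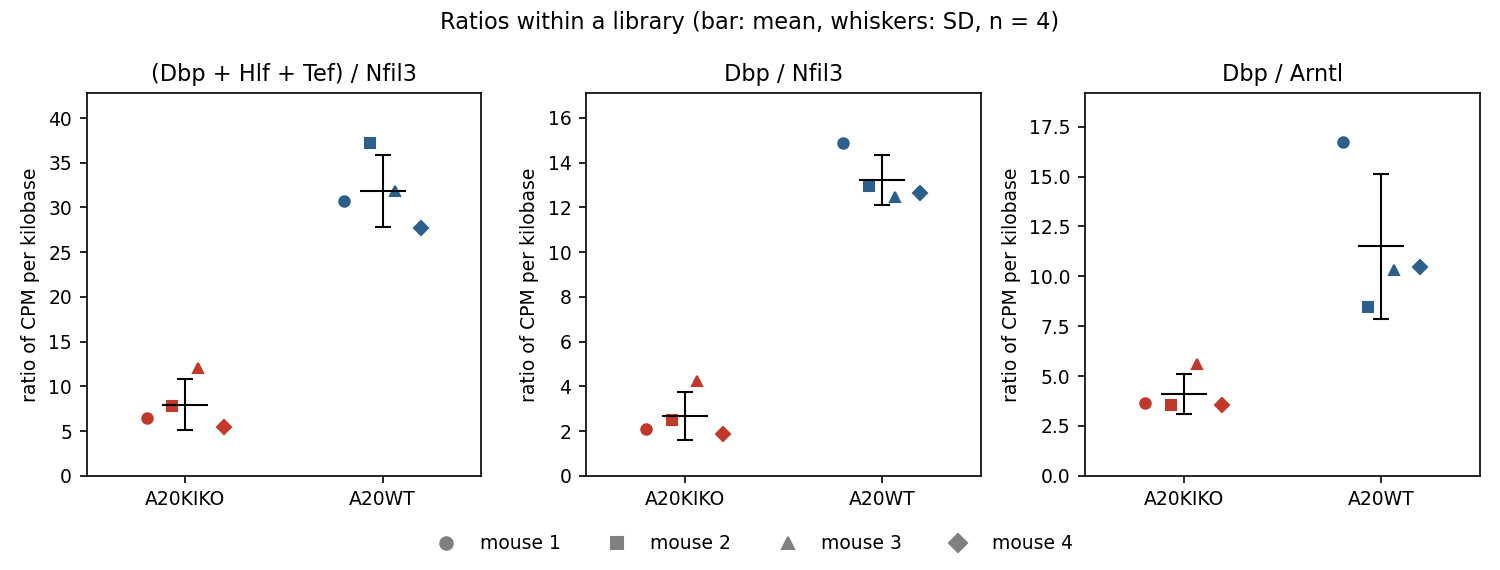
Ratios of CPM per kilobase of exon within each library (vertical axes, from 0) for A20KIKO (red, left) and A20WT (blue, right), with group mean and SD (n = 4). All 3 ratios are lower in each A20KIKO library than in each A20WT library. This follows from the separations of Dbp, of the PAR bZIP sum, of Nfil3 and of Arntl, and is no further result.

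Arntl, the non-redundant activator of the clock, was slightly higher in A20KIKO. It had 42.8, 47.0, 38.7 and 41.5 CPM in A20KIKO mice 1 to 4, against 24.4, 38.1, 33.0 and 37.5 CPM in A20WT mice 1 to 4. The log2 change was 0.36 (SE 0.15), and the groups were separated by a margin narrower than the spread within either, between A20KIKO mouse 3 and A20WT mouse 2. A20WT mouse 1 held the lowest value of all 8 libraries, and without it the log2 change was 0.23. The ratio of Dbp to Arntl per kilobase within a library was 4.10 ± 1.01 in A20KIKO and 11.5 ± 3.61 in A20WT (SD, n = 4 each), with no overlap. That separation follows from those of Dbp and of Arntl and is no further result.

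The period genes, whose proteins repress the Clock and Arntl pair, did not move as a set. Per3, the member with a lesser role in keeping the rhythm, had 27.0, 29.1, 28.7 and 24.8 CPM in A20KIKO mice 1 to 4, against 55.1, 47.0, 47.7 and 41.0 CPM in A20WT mice 1 to 4. Its log2 change was -0.80 (SE 0.12), and the groups did not overlap. Per1, which also responds directly to glucocorticoid hormones, had 65.8, 65.0, 52.5 and 42.4 CPM in A20KIKO mice 1 to 4, against 64.7, 43.3, 43.6 and 42.4 CPM in A20WT mice 1 to 4. The groups overlapped over almost their whole range, and the log2 change was 0.22 (SE 0.18). Per2 had 15.8, 18.2, 24.7 and 8.63 CPM in A20KIKO mice 1 to 4, against 12.01, 31.3, 17.2 and 13.6 CPM in A20WT mice 1 to 4. Its log2 change of -0.14 (SE 0.37) had the widest error of the 10 genes, and its sign turned to 0.08 without A20KIKO mouse 4 and to 0.24 without A20WT mouse 2.

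Both further repressors were lower in A20KIKO. Nr1d1, which encodes the nuclear receptor REV-ERB alpha, had 144, 139, 171 and 158 CPM in A20KIKO mice 1 to 4, against 185, 252, 249 and 253 CPM in A20WT mice 1 to 4. The log2 change was -0.62 (SE 0.13), and A20WT mouse 1 was nearest to the A20KIKO libraries without reaching them. Bhlhe41, a bHLH protein that competes for E-boxes and is also called DEC2, had 6.70, 7.18, 5.54 and 6.84 CPM in A20KIKO mice 1 to 4, against 13.97, 12.8, 12.1 and 9.84 CPM in A20WT mice 1 to 4. Its log2 change was -0.89 (SE 0.15), and the groups did not overlap.

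Of these 10 genes, 6 were among the genes called changed between the groups at an edgeR quasi-likelihood adjusted p under 0.05, where 3.49% of all 16512 tested genes were called. Nfil3 was called higher, a call made for 2.43% of tested genes. Dbp, Hlf, Per3, Nr1d1 and Bhlhe41 were called lower, a call made for 1.06%. The groups did not overlap in 7 of the 10 genes (10.6% of tested genes), 2 with all A20KIKO libraries above (5.78%) and 5 with all below (4.79%). Since the genes were picked by this contrast, nothing is read from these counts. The median log2 change was -0.53 over the 10 genes and -0.01 over all tested genes. Nr1d1 was not among the called genes when A20KIKO mouse 1 or 2, or A20WT mouse 3 or 4, was left out (5 of the 10 genes called), with log2 changes of -0.59 to -0.57 in those fits.

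Per kilobase of exon, which allows levels to be set between genes, Nr1d1 was highest in both groups, at 49.7 ± 4.66 CPM in A20KIKO and 76.3 ± 10.7 CPM in A20WT (SD, n = 4 each). Tef, Dbp and Hlf followed in A20KIKO at 31.1 ± 5.26, 22.9 ± 4.17 and 14.5 ± 2.00 CPM per kilobase. In A20WT the order was Dbp, Tef and Hlf, at 48.6 ± 5.48, 42.4 ± 7.40 and 25.2 ± 2.63 CPM per kilobase, with Dbp and Tef within their spread. Nfil3 was sixth in A20KIKO at 9.04 ± 1.58, close to Per1 at 10.02 ± 1.98, and eighth in A20WT at 3.68 ± 0.34, within the spread of Arntl and Per2. Bhlhe41 was lowest in both, at 0.98 ± 0.11 CPM per kilobase in A20KIKO and 1.81 ± 0.26 in A20WT.

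Some of these genes share exons with a neighbour, and the libraries do not keep strand. Exons of Dbp overlap those of Sphk2 on the other strand over 539 bases, 18.0% of the exon length of Dbp. Sphk2, a sphingosine kinase, had 107 ± 6.59 CPM in A20KIKO and 96.2 ± 10.6 CPM in A20WT (SD, n = 4 each), or 0.15 on the log2 scale (edgeR adjusted p = 0.587), opposite in sign to that of Dbp. Nr1d1 overlaps Thra, the gene of a thyroid hormone receptor, over 263 bases (8.55%), and Thra had a log2 change of -0.27 (edgeR adjusted p = 0.361). The predicted gene Gm43909 covers 1280 bases (19.05%) of the Bhlhe41 exons at 0.21 CPM in A20KIKO and 0.40 CPM in A20WT. Per3 lies inside Camta1 on the same strand and shares no exon base with it.

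The directions were then placed in the textbook order of daily peaks in mouse peripheral tissue, with Npas2, Clock, Nr1d2, Ciart and Cry1 added to the 10 genes to fill the circle. A single difference in phase leaves 1 unbroken arc of higher and 1 of lower genes, so that the sign turns 2 times round the day. Over the 10 genes it turned 4 times, with 3 genes higher and 7 lower. The break was at Per1, which was higher between the lower Hlf and Bhlhe41, and the count was 2 without Per1. Leaving out any other single gene kept it at 4. The signs of Per1 and Per2 were not determined, as both lay within 2 SE of 0, and over the other 8 genes the sign turned 2 times. Over all 15 genes it turned 4 times, with 4 higher and 11 lower. Over the 9 of them more than 2 SE from 0 it turned 2 times. Among the 10 genes, 7 of the 8 in antiphase to Arntl were lower and 1 higher, and Arntl and Nfil3, which share a phase, were both higher. Of the added genes, 1 of the 3 in the arm of Arntl was higher and 2 were lower. Both added antiphase genes were lower. Of the 15 genes, 6 lay within 2 SE of 0, which besides Per1 and Per2 were Npas2, Clock, Nr1d2 and Cry1. The signs of those added genes were therefore not determined either, and only that of Ciart was. The directions of the 10 genes were seen when they were chosen. All mice were killed 7 days after the first injection, and the hour of killing is not given for either group. A shifted phase, a different hour of killing, a smaller amplitude and separate changes of single genes therefore cannot be told apart.

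**Figure D3:**
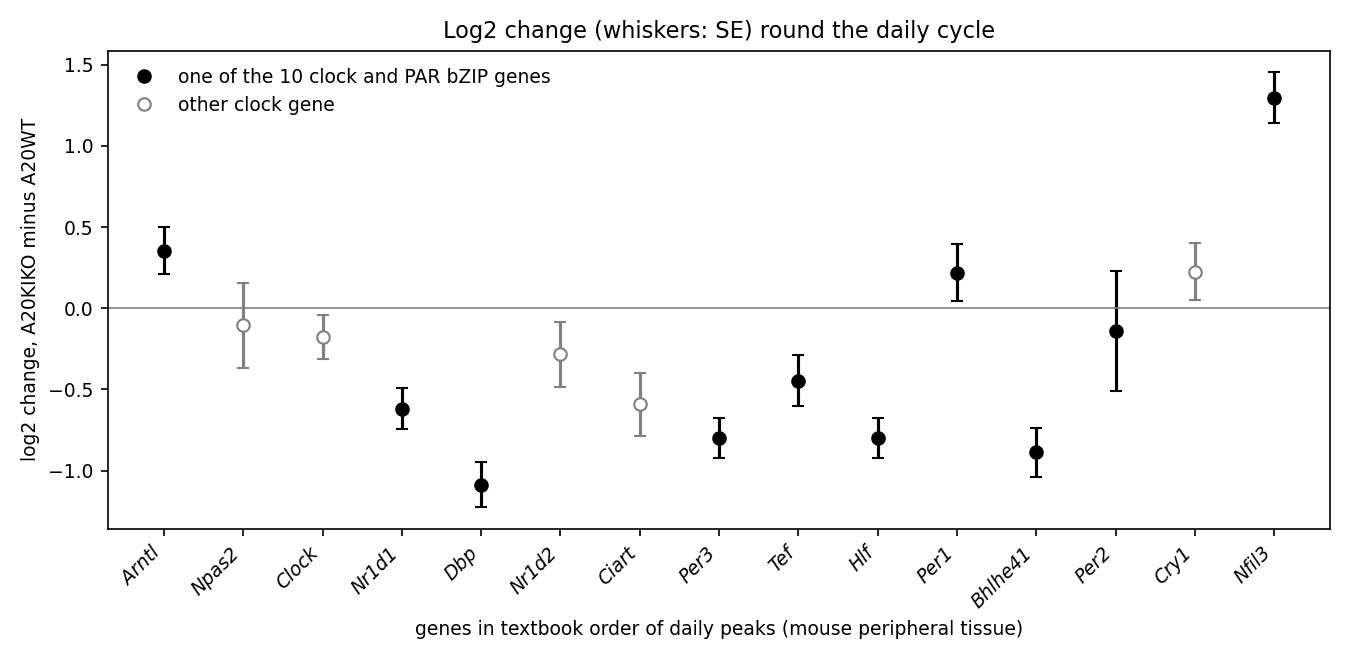
Log2 change between A20KIKO and A20WT (vertical axis, whiskers SE) for the 10 genes (filled) and 5 further clock genes (open), in the textbook order of their daily peaks (horizontal axis). From Nr1d1 to Hlf all 7 genes are below 0, Per1 is above it, and Npas2 and Clock, the neighbours of Arntl in phase, are slightly below 0.

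Further clock genes, not among the 10, were set beside them. Of 10 tested core clock partners, 0 were called by edgeR's quasi-likelihood test in either direction, 0 by DESeq2 and 0 by limma-voom, and 3 had an unadjusted p under 0.05, where 15.4% of all tested genes did. Their median log2 change was -0.14. Npas2, a paralogue of Clock in phase with Arntl, had 5.76 ± 0.84 CPM in A20KIKO and 6.22 ± 2.42 CPM in A20WT (SD, n = 4 each), or -0.11 on the log2 scale (SE 0.26, edgeR adjusted p = 0.909). Clock had a difference of -0.18 on the log2 scale (SE 0.14, edgeR adjusted p = 0.616). Cry1, a co-repressor of the period proteins, had 58.0 ± 12.03 CPM in A20KIKO and 49.6 ± 10.4 CPM in A20WT, or 0.23 on the log2 scale (SE 0.17, edgeR adjusted p = 0.616). None of these 3 phase partners of Arntl and Nfil3 passed the test, and only Cry1 among them had the sign of Arntl. Arntl2, a core clock partner outside the day order, was named after its values were seen. It had 8.76 to 10.7 CPM in A20KIKO and 6.23 to 7.85 CPM in A20WT, with no overlap. Its log2 change was 0.44 (SE 0.14, edgeR adjusted p = 0.144).

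Ciart, a repressor of the Clock and Arntl pair that peaks near Dbp, was the partner closest to the antiphase genes. It had 69.5, 68.9, 60.2 and 40.4 CPM in A20KIKO mice 1 to 4, against 122, 87.5, 75.5 and 74.9 CPM in A20WT mice 1 to 4. The groups did not overlap, with a log2 change of -0.59 (SE 0.19), but the adjusted p was 0.142 by edgeR. Nr1d2, the paralogue of Nr1d1, had 51.4 ± 6.73 CPM in A20KIKO and 62.6 ± 19.2 CPM in A20WT (SD, n = 4 each), or -0.28 on the log2 scale (SE 0.20, edgeR adjusted p = 0.566). The partners with the highest levels were Rora, a receptor that activates through ROR elements, and Bhlhe40, the paralogue of Bhlhe41. Rora had 515 ± 53.3 CPM in A20KIKO and 628 ± 44.9 CPM in A20WT (log2 change -0.29, edgeR adjusted p = 0.255). Bhlhe40 had 144 ± 30.3 CPM in A20KIKO and 137 ± 8.80 CPM in A20WT (log2 change 0.07, edgeR adjusted p = 0.872).

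Genes around the clock were called in none of 4 further lists by edgeR, DESeq2 or limma-voom. Of 12 tested kinases and ubiquitin ligases of clock proteins, 0 were called, 4 had an unadjusted p under 0.05 and the median log2 change was -0.24. The kinase gene Csnk1d, whose product phosphorylates PER proteins, had a log2 change of 0.07 (edgeR adjusted p = 0.864), and Csnk2b one of -0.28 (adjusted p = 0.373). Of 10 tested output genes, 0 were called, 3 had an unadjusted p under 0.05 and the median log2 change was 0.00. Herpud1 and Cirbp, which encodes a cold-induced RNA-binding protein, had log2 changes of -0.17 and -0.47 (edgeR adjusted p = 0.483 and 0.242). Nampt and Por, named after their values were seen, had the opposite sign, at 0.42 and 0.30 (edgeR adjusted p = 0.121 and 0.244). In that list 5 log2 changes lay above 0 and 5 below. Of 13 tested other bZIP factors, 0 were called, 1 had an unadjusted p under 0.05 and the median was -0.04. Junb and Cebpb had log2 changes of 0.34 and 0.23 (edgeR adjusted p = 0.502 and 0.711). Over the 5 lists, 14 of 57 tested genes had an unadjusted p under 0.05 (24.6%, against 15.4% of all tested genes), and the groups did not overlap in 7 of them (12.3%, against 10.6%).

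Glucocorticoid-responsive genes were set beside Per1, which shares that input. Of 12 tested, 0 were called by edgeR, 3 had an unadjusted p under 0.05 and the median log2 change was 0.17. Tsc22d3 had 421 ± 184 CPM in A20KIKO and 421 ± 125 CPM in A20WT (SD, n = 4 each), and the kinase gene Sgk1 335 ± 43.1 CPM in A20KIKO and 339 ± 33.9 CPM in A20WT (edgeR adjusted p = 1.00 and 0.971). Fkbp5, a chaperone of the receptor that was named after its values were seen, had 65.0, 109, 74.8 and 33.2 CPM in A20KIKO mice 1 to 4, against 22.8, 54.3, 31.6 and 31.2 CPM in A20WT mice 1 to 4. Its log2 change was 1.01 (SE 0.38, edgeR adjusted p = 0.233), and it was called higher without A20KIKO mouse 4 (log2 change 1.25). The other genes of the list with an unadjusted p under 0.05, also named after their values were seen, had the opposite sign. They were Klf9, a zinc finger factor gene, at -0.54 on the log2 scale (SE 0.22, edgeR adjusted p = 0.251), and Nr3c1, the gene of the glucocorticoid receptor, at -0.29 (SE 0.13, edgeR adjusted p = 0.296). A20KIKO mouse 4 had the lowest level of its group in Fkbp5, Tsc22d3, Per1 and Per2.

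Mice of a group differed among themselves in the clock genes, most of all in Per2 and Npas2. Within A20WT, mouse 1 was lowest in 7 of the 15 genes in day order and highest in 5, and mouse 2 was highest in 8. A20WT mouse 1 was lower than mouse 2 in Arntl, Npas2, Clock, Nr1d1, Nr1d2, Tef, Hlf, Per2 and Cry1. It was higher than mouse 2 in Per1, Ciart, Per3, Dbp, Bhlhe41 and Nfil3. Within A20KIKO, mouse 4 was lowest in 7 of the 15 genes, among them Ciart, Per1, Per2 and Tef. The spread of Per2 within a group, 0.62 on the log2 scale (pooled SD), was larger than its difference between the groups. That of Dbp was 0.21 and that of Nfil3 0.21, smaller than their differences. Without both A20KIKO mouse 4 and A20WT mouse 1, an alternative chosen after the data were seen, 7 of the 10 genes were called, with Per1 (log2 change 0.50) added to the 6. Over all genes that fit called 532. The 2 libraries left out held the lowest A20KIKO and the highest A20WT level of Per1, so leaving them out widens its difference by construction and nothing is read from that call.

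**Figure D4:**
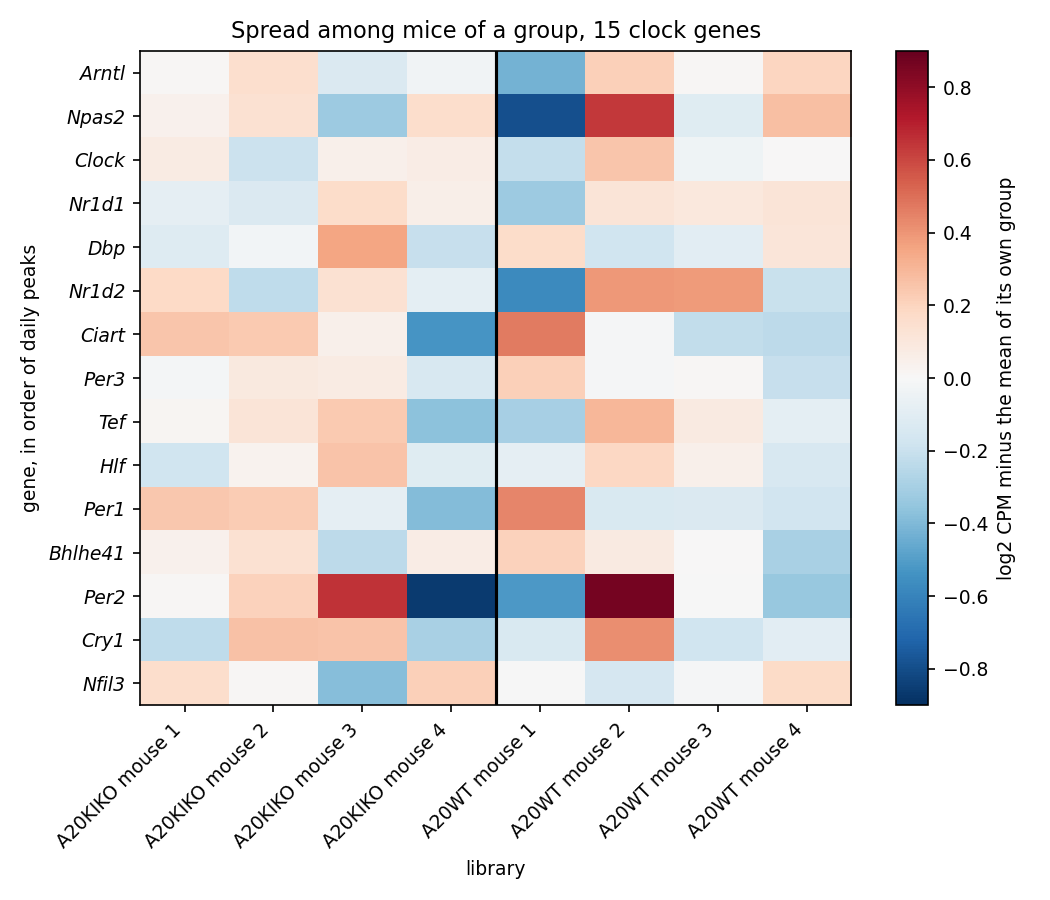
Difference of each library's log2 CPM from the mean of its own group (colour scale, log2 units) for 15 clock genes in the order of their daily peaks, with A20KIKO libraries left of the line and A20WT libraries right of it. A20WT mice 1 and 2 differ in opposite directions in Npas2, Nr1d2 and Per2, and A20KIKO mouse 4 is low in Per2, Ciart, Per1 and Tef.

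Library totals ran from 40451075 to 89624373 counts. Tnfaip3, the targeted gene, had 55.0 to 90.9 CPM in A20KIKO and 13.5 to 19.6 CPM in A20WT, or 2.16 on the log2 scale (SE 0.18, edgeR adjusted p = 8.36e-05), opposite to a loss. The count covers the whole gene, exons outside the deleted part included, so it does not check the deletion. Keratinocyte markers were abundant, with the 6 basal markers summing to 22931 to 28632 CPM in A20KIKO and 31085 to 41285 CPM in A20WT, and the 6 suprabasal ones to 25903 to 36020 CPM in A20KIKO and 22713 to 33184 CPM in A20WT. Of the basal markers 2 had a log2 change above 0 and 4 below, and of the suprabasal ones 3 above and 3 below. The largest part of the basal sum was Krt14, whose groups overlapped (log2 change -0.28, edgeR adjusted p = 0.537). In each list 1 gene was called lower by edgeR, a call made for 1.06% of tested genes. Krt5, whose promoter drives the Cre, had 3354 to 3637 CPM in A20KIKO and 5574 to 6869 CPM in A20WT (log2 change -0.83, SE 0.12, edgeR adjusted p = 0.00272), and Flg2, a gene of the cornified layer, had 60.1 to 108 CPM in A20KIKO and 119 to 204 CPM in A20WT (log2 change -0.90, SE 0.20, edgeR adjusted p = 0.0292). Of 8 tested of 10 monocyte and macrophage markers, 3 were called higher by edgeR (C1qa, C1qb and C1qc), against 2.43% of all tested genes. DESeq2, run without the filter on low counts, called 7 of the 10. Over all genes DESeq2 called 1171, against 576 by edgeR and 551 by limma-voom. All 8 markers tested by edgeR had a log2 change above 0. The list summed to 98.3 to 171 CPM in A20KIKO and 51.8 to 93.7 CPM in A20WT, with no marker at 0 in all A20WT libraries. The 8 neutrophil markers (3 tested, 0 called by edgeR, DESeq2 or limma-voom, 1 with an unadjusted p under 0.05) summed to 23.0 to 2932 CPM in A20KIKO, the top in mouse 4, and 5.59 to 38.4 CPM in A20WT, with Ly6g at 0 in all A20WT libraries. The 5 melanocyte markers (0 called by edgeR, 2 by DESeq2 and 0 by limma-voom, 4 with an unadjusted p under 0.05, against 15.4% of all tested genes) summed to 45.9 to 215 CPM in A20KIKO and 40.9 to 53.7 CPM in A20WT. The 6 fibroblast markers (5 tested and 0 called by edgeR, 3 of the 6 called by DESeq2 and 2 by limma-voom, 4 with an unadjusted p under 0.05, against 15.4% of all tested genes) summed to 15.1 to 36.7 CPM in A20KIKO and 39.7 to 55.3 CPM in A20WT. The 5 endothelial markers (3 tested, 0 called by any of these tools, 0 with an unadjusted p under 0.05) summed to at most 2.89 CPM in any library. The part of these cells in the differences of the clock genes was not tested, and in sheets of mixed cells fewer cells of a type and less RNA per cell cannot be told apart. Without A20KIKO mouse 4, where the neutrophil sum was highest, the log2 changes were -1.02 for Dbp, -0.76 for Hlf and 1.22 for Nfil3. C1qa, C1qb and C1qc were higher in every A20KIKO library than in any A20WT library. The fit without mouse 4 therefore does not test the part of these cell types.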

How the data were processed

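Epidermal RNA of 8 mice was copied with the SMART-Seq v4 kit and sequenced, per the labels' protocols. Each deposited file holds unnormalized read counts by Ensembl identifier, in 2 lane columns per library (whole numbers of at least 0 in all 16 columns). The submitters' processing notes list HTSeq 0.6.1p1, STAR 2.4.2a and Picard 1.139, give GRCh38 beside GRCm38.p5, and state no roles or counting options. The kit keeps no strand and no molecular identifiers, so overlapping genes can share reads and PCR copies count as molecules.

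Lanes were summed per library. Of 51912 identifiers, 51633 matched a symbol and a position in GENCODE release M21 (GRCm38). Genes passing filterByExpr (minimum count 10, total 15) were scaled by TMM and fitted across all genes in R 4.3.3 with edgeR 4.0.16 (quasi-likelihood, robust, group as only term, Benjamini-Hochberg over 16512 genes, two-sided). The SE is the absolute log2 change over the square root of F, and CPM use TMM-scaled library sizes. Per-kilobase levels divide by the union of annotated exons. Log2 CPM deviations used a prior count of 2. The count tools, DESeq2 1.42.0 and limma 3.58.1 (voom), other scalings and filters, single lanes, the replicate number as a block and each library left out were alternatives. Python 3.11.15 with pandas 2.3.3 and Matplotlib 3.10.9 made tables and plots.

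The members and lists were chosen with earlier results of these data known. Named genes were the 10 members, the tested genes in the day order, up to 3 called genes of each list or else its 2 highest, the 5 genes most and least like Dbp, and Tnfaip3. With 4 mice a group, edgeR p-values set the group difference against the spread between these mice, estimated with information from all tested genes. A result for 1 gene of the clock kinase and ligase list is not reported here.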

Additional observations from a re-analysis of the deposited data

Results flagged for a closer look

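In 4 of 52 groups of 4 libraries tested over a part of the named genes, a single library stood apart from the others on the log2 scale by Dixon's criterion, and chance flags about 1 in 20 groups. Per1 had 64.7 CPM in A20WT mouse 1, against 42.4 to 43.6 CPM in the other A20WT libraries. Nr1d1 had 185 CPM in A20WT mouse 1, against 249 to 253 CPM in the others. Cry1 had 65.2 CPM in A20WT mouse 2, against 43.2 to 45.7 CPM in the others. Clock had 10.7 CPM in A20KIKO mouse 2, against 12.6 to 12.9 CPM in the others. Without A20WT mouse 1 the log2 change of Per1 was 0.39 and that of Nr1d1 -0.72. What set these libraries apart was not tested.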

How the results depend on the processing

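None of the 10 genes moved by more than its spread within a group in any of the 18 alternatives, and only Per2 turned its sign. The log2 changes ran from -1.22 to -0.96 for Dbp, -0.89 to -0.73 for Hlf, -0.54 to -0.34 for Tef, 1.22 to 1.41 for Nfil3, 0.23 to 0.43 for Arntl, 0.14 to 0.50 for Per1, -0.38 to 0.24 for Per2, -0.87 to -0.68 for Per3, -0.73 to -0.57 for Nr1d1 and -0.98 to -0.82 for Bhlhe41. The number of the 10 genes called was 5 to 6 with 1 library left out and 6 to 7 in the other alternatives, and the sign turned 4 times round the day in each. Over all genes, 576 were called (401 higher and 175 lower in A20KIKO). The count was 374 (249 higher) at a filter of 5 CPM in 4 libraries and 1171 (763 higher, 408 lower) by DESeq2. The cause of either difference was not tested. With 1 library left out the count ran from 348 (without A20KIKO mouse 1) to 619, with 355 without A20WT mouse 3, and with 254 to 443 higher and 92 to 181 lower. With the replicate number as a block, 551 genes were called, with 1 core clock partner (Ciart) and 1 glucocorticoid gene (Fkbp5) where the fit without it called 0. Deviations of same-numbered mice correlated at -0.01 to 0.24, so the numbers are not taken to pair the mice. With 1 library left out, 0 to 1 clock kinases and ligases and 0 to 1 glucocorticoid genes were called, and 0 core clock partners, output genes or other bZIP factors. Without both A20KIKO mouse 4 and A20WT mouse 1, chosen after the data were seen, 1 glucocorticoid gene (Ddit4) was called. Those libraries held the lowest A20KIKO and the highest A20WT level of Ddit4, so nothing is read from that call. The lowest count of the 10 genes in a library was 226, for Bhlhe41.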

Other observations

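Genes whose spread among mice of a group was most like that of Dbp were not clock genes. Over the 8 libraries, with each group's mean removed, the highest Pearson correlations with Dbp among 10327 genes of at least 5 CPM were 0.98 for D10Jhu81e, 0.96 for Tnfaip8l2, 0.96 for Bloc1s3, 0.95 for Mrm3 and 0.92 for Fstl3. The lowest were -0.95 for Clcn5, -0.95 for Fam8a1, -0.95 for Metap1, -0.95 for Tom1l1 and -0.94 for Nek2. The other 9 clock and PAR bZIP genes had correlations of -0.58 (Nfil3) to 0.39 (Per3) with Dbp, and all 10 extreme genes were the same at a prior count of 0.5. These are descriptions of 8 libraries, picked as extremes of 10327 genes.

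Some genes stood out in A20WT mouse 1 and were named after their values were seen, so they stand for no group of genes. Fos had 29.5 to 69.6 CPM in A20KIKO mice, against 241 CPM in A20WT mouse 1 and 21.7 to 30.0 CPM in the other A20WT mice. Dusp1, a phosphatase of MAP kinases, had 187 to 327 CPM in A20KIKO mice, against 439 CPM in A20WT mouse 1 and 174 to 204 CPM in the other A20WT mice. The transcription factor gene Atf3 had 9.44 to 17.5 CPM in A20KIKO mice, against 41.8 CPM in A20WT mouse 1 and 6.23 to 9.37 CPM in the other A20WT mice. Jun did not stand out in that mouse, with 79.7 to 120.3 CPM in A20KIKO mice, against 107 CPM in A20WT mouse 1 and 91.4 to 131 CPM in the other A20WT mice. What set these levels apart was not tested.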
